A study of Mus musculus with 17 samples.

Results

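The 10 genes followed here are known from T cells, and they were traced through all 17 hippocampal libraries of the study: the CD3 chains Cd3e, Cd3d and Cd3g, the co-receptor chains Cd8a, Cd8b1 and Cd4, the effector genes Ccl5, Nkg7 and Gzmk, and the SLAM family receptor Ly9. All 10 were found, by their Ensembl identifiers, among the 38355 genes counted. The RNA was polyA RNA from hand-dissected hippocampus of wild type C57BL/6J mice that had received no treatment, and no transgene or deletion was involved. Single-end libraries covered 3-month-old mice (3M, n = 5 libraries) and 24-month-old mice (24M, n = 6), and paired-end libraries covered 3-month-old mice (n = 3) and 29-month-old mice (29M, n = 3). The oldest mice had been bought at 24 months and kept in house until they reached their final age. Comparisons were made only within a library type, 24M against the single-end 3M group and 29M against the paired-end one. The sources used here do not say that every library came from a separate animal, so the p-values below measure the spread between libraries, part of which may be technical.

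T cells recognise peptides on MHC molecules through the T cell receptor, whose alpha and beta chains bind the peptide while the CD3 chains carry the signal into the cell. CD8 marks T cells that read MHC class I and can kill their targets, and CD4 marks helper and regulatory T cells that read MHC class II. The healthy brain parenchyma holds few T cells, most of them at its borders, so their transcripts are rare in RNA of whole hippocampus. In such bulk RNA, fewer or more cells of a type and less or more RNA per cell cannot be told apart.

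Cd8a and Ly9 were called higher at both ages and Cd8b1 at 29M, and the CD3 chains and the T cell receptor genes did not pass the test at either age. The 24M call of Cd8a was lost in 5 of 11 fits with a single library left out, and the 29M call of Cd8b1 without 29M replicate 3. Cd8a went from 5 reads over the 5 single-end 3M libraries to 22 at 24M, where replicates 1 and 4, alike within sampling noise, are taken as 1 sample (33 over the 6 libraries as counted), and from 0 reads over the 3 paired-end 3M libraries to 15 over the 3 libraries at 29M. Cd8b1 had 0 reads in all 8 libraries of 3-month-old mice, 6 at 24M with that pair as 1 sample (9 as counted) and 16 in the 29M libraries. Ly9 rose by 2.21 ± 0.38 (SE) on the log2 scale at 24M and by 3.55 ± 0.58 at 29M (edgeR without a filter on low counts). Cd4 was the only member with a lower mean at 24M beyond counting error, and its difference rested on 1 library of the 3M group.

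The 250 bases before the start of Cd8a, the CD8 chain called at both ages, and of Cd3d, a CD3 chain that did not pass the test, are printed from RefSeq on GRCm38.p6, read on the strand of the gene (plus for both), because the CD8 and CD3 chains are the members the results set side by side. Capitals mark matches, on either strand, to 5 short motifs that were searched: GAAANNGAA (core of an interferon response element), TTCNNNGAA (STAT site), GGGANNTTC (NF-kB site), TGTGGT (RUNX site) and CANNTG (E-box).
Cd8a, chr6:71373177-71373426: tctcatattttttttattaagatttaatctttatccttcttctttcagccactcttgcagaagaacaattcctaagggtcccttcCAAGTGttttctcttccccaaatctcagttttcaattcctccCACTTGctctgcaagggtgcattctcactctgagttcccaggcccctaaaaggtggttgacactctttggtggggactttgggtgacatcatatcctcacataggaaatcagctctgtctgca
Cd3d, chr9:44981536-44981785: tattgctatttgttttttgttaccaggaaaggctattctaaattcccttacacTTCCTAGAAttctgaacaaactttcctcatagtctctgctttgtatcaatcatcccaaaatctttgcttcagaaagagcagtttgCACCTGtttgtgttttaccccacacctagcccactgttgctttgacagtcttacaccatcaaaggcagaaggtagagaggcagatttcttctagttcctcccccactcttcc
RefSeq windows (250 bases before to 50 after the start) were at hand for 6 of the 10 members, namely Cd3e, Cd3d, Cd3g, Cd8a, Nkg7 and Gzmk, and the search covered those. The Cd8a stretch held E-boxes beginning at -165 and -123, counted from the start, and none of the other 4 motifs. The Cd3d stretch held a STAT-type match at -197 and an E-box at -112. Over all 32851 promoter windows, an E-box was present in 72.3%, the RUNX letters in 16.8%, the interferon core in 8.56%, the STAT letters in 8.30% and the NF-kB letters in 3.94%. Among the other windows, Nkg7 held a STAT-type match (-220) and the RUNX letters (-83), and Gzmk held the NF-kB letters (-112). A match is only a description of the letters.

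Before the results, several libraries have to be named. The 24M replicates 1 and 4 differed from each other by less than sampling noise (mean squared difference over its binomial variance 0.406, against 1.23 or more in the other 135 library pairs), so their rounded mean entered every test as 1 sample and the 24M group had n = 5. They also carried the highest Cd8a counts at 24M, 11 reads in each. The 3M single-end replicate 4 stood apart in a way that reached these genes. It held 71 of the 109 Cd4 reads of its group, and, chosen after their values were seen, 253 reads of Rbp3 (0 to 4 in the other 4 libraries), 201 of Tph1 (2 to 6) and 49 of Crx (0 or 1), which are known from the retina and pineal gland. It also held 615 reads of Adora2a (36 to 60), which is known from the striatum. Among the paired-end libraries, Rbp3 had 18 reads in 3M replicate 3 and 22 in 29M replicate 3, and 1 in each of the others. Whether neighbouring tissue took part in the Cd4 count was not tested.

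All of these genes were rare. The libraries held 9213474 to 28438296 counted reads each, so that 3 reads correspond to between 0.106 and 0.326 CPM (counts scaled to a library of 1000000). Tests used edgeR's quasi-likelihood fit with Benjamini-Hochberg adjustment over all genes tested, and a call needed both an adjusted p no greater than 0.05 and a log2 fold change of at least 0.5 in size. Under edgeR's default filter on low counts, 1 of the 10 members could be tested, Ly9, and it passed that filter through its counts in the aged libraries (at least 10 reads in 6 of 6 libraries at 24M and 3 of 3 at 29M, against 1 of 5 and 0 of 3 at 3M). Its passing is therefore no support in itself. The other 9 were tested in a second fit without a filter, in which every gene with a read entered. Intervals on reads given below (exact, 95%) cover counting error only.

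Under the default filter the background of genes called higher was 1.34% of 15683 genes at 24M and 1.34% of 15097 at 29M. Nothing is read from the call of Ly9 against this share, since it entered that fit through its aged libraries. The share moved to 0.753%, 2.49% and 0.576% without 3M replicate 1, 3M replicate 5 or 24M replicate 2, and to 0.773% and 0.74% without 29M replicate 1 or 3. Without a filter, 2 of the 10 members were called higher at 24M (Cd8a and Ly9), where 1.0% of 26441 genes were, and 3 of 10 at 29M (Cd8a, Cd8b1 and Ly9), where 1.5% of 24470 genes were. No member was called lower in these edgeR fits, in which 4 members at 24M and 3 at 29M had an unadjusted p under 0.05. DESeq2, which gave no adjusted p for most members, called 1 higher at each age, Ly9, and 0 lower. The median log2 fold change of the 10 members without a filter was 0.80 at 24M and 0.77 at 29M, against -0.02 and 0.02 over all genes. Setting the genes at 0 reads in the 3M group to their lower bound could not move this median. Those bounds lay above it, so the step is no check of it. In 2 of the 10 members all 24M samples lay above all 3M samples (1.93% of all genes with a read), and in 4 of 10 all 29M libraries lay above all 3M libraries (7.52%).

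**Figure D1:**
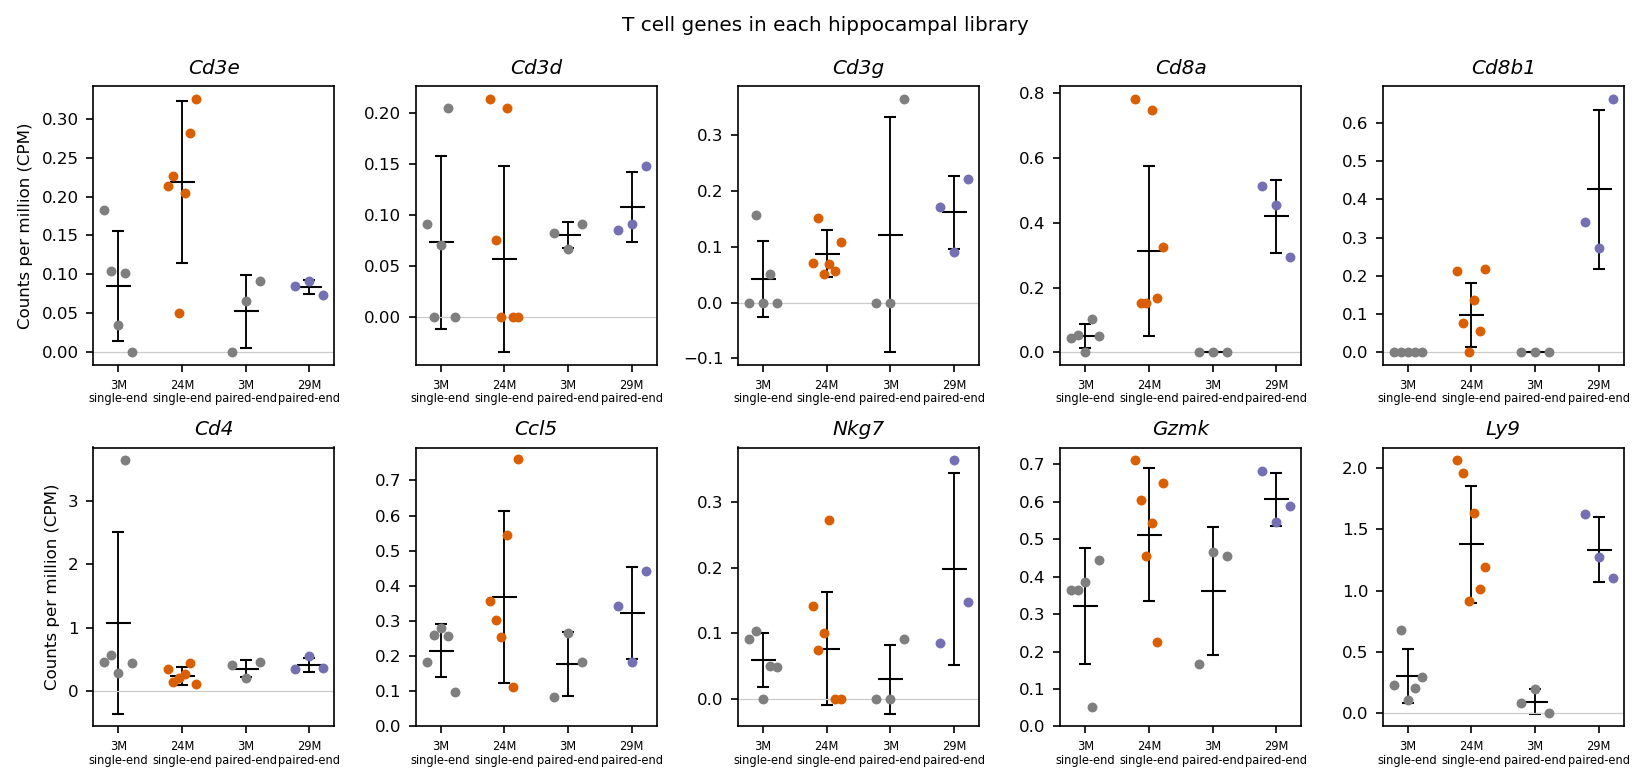
CPM of the 10 genes (vertical axes, each on its own scale) in each of the 17 libraries (points), with group mean and SD (bars, 24M replicates 1 and 4 counted as 1 sample). The 29M points of Cd8a, Cd8b1, Gzmk and Ly9 lie above all paired-end 3M points, and 1 single-end 3M library stands far above the rest for Cd4 (3.64 CPM).

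The CD3 chains, which form the signalling part of the T cell receptor complex, were counted in single reads at every age. Cd3e (chr9:44998740-45009627, minus strand, protein coding) had 4, 2, 1, 2 and 0 reads in the 5 single-end 3M libraries and 1, 3 and 5 as the lowest, median and highest of the 24M libraries. The paired-end counts were 0, 1 and 1 at 3M and 1, 1 and 1 at 29M. The groups overlapped in both comparisons, and the log2 difference was 1.24 ± 0.64 at 24M (edgeR without a filter, adjusted p = 0.319) and 0.58 ± 1.41 at 29M (adjusted p = 0.889). Cd3d and Cd3g, its neighbours on chromosome 9, had at most 4 reads in any library. Cd3d had 8 reads in the single-end 3M libraries and 4 at 24M with replicates 1 and 4 as 1 sample (7 as counted), and 3 and 4 in the paired-end groups. For Cd3g these totals were 4 and 6 (7 as counted), and 4 and 6. Neither chain passed the test (adjusted p from 0.582 to 0.906). Taken as 1 sum, with the 24M pair as 1 sample, the CD3 chains were 1.75-fold higher at 24M by reads (interval 0.941 to 3.29). At 29M they were 1.52-fold higher (0.60 to 4.02). Both intervals cover counting error only, and the reads do not exclude a ratio of any size within them.

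The T cell receptor chains themselves gave the same picture of few reads without a called change. Trac, the constant part of the alpha chain, had 3 to 14 reads in the single-end 3M libraries and 2 to 8 at 24M, and 2 to 4 and 1 to 5 in the paired-end groups. Its log2 difference was -0.07 ± 0.42 at 24M and 0.22 ± 0.75 at 29M (edgeR without a filter, adjusted p = 0.937 and 0.927). Trbc2, a constant part of the beta chain, had 5, 14, 7, 41 and 11 reads in the single-end 3M libraries, with the 41 again in replicate 4, and 0 to 6 at 24M (log2 difference -1.85 ± 0.65, adjusted p = 0.114). The size of this difference depends on replicate 4, which was at 2.1 CPM against 0.228 to 0.731 in the other single-end 3M libraries. In the paired-end libraries Trbc2 had 0 to 4 reads at 3M and 1 to 6 at 29M (1.02 ± 0.87, adjusted p = 0.697). Trbc1, a near-identical copy, had at most 1 read, and reads shared by the copies may have been lost as not unique. Cd247, the zeta chain, had 0 to 3 reads in both single-end groups, and 1 to 3 at 3M and 3 to 6 at 29M in the paired-end libraries (log2 difference 0.94 ± 0.75, adjusted p = 0.655). Of the 21 receptor and signalling genes listed, 7 passed the default filter at 24M and 6 at 29M, with 0 called in either direction by edgeR or DESeq2 and an unadjusted edgeR p under 0.05 for 1 gene at each age. Their medians were 0.07 and 0.21, against about 0 over all genes. Thy1, which neurons also express, made up nearly all of the list's summed level (671 CPM of 687 in the single-end 3M group).

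Of the 3 gamma delta receptor chains measured, none passed the default filter and no library held more than 0.182 CPM in sum.

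The CD8 chains had few or no reads at 3M. Cd8a (chr6:71373427-71379173, plus strand), whose upstream sequence is printed above, encodes the alpha chain. It had 1, 1, 0, 2 and 1 reads in the single-end 3M libraries, and 2, 3 and 11 reads as the lowest, median and highest at 24M. All 24M samples were above all 3M samples in CPM (0.0499 ± 0.0363 at 3M and 0.313 ± 0.264 at 24M, SD, n = 5 and 5), with 0.102 as the highest at 3M and 0.151 as the lowest at 24M. By reads this was a 6.47-fold difference (interval 2.39 to 21.9), and the fit gave a log2 change of 2.54 ± 0.68 (edgeR without a filter, adjusted p = 0.0399). That call was narrow. It was lost without 3M replicates 1, 2 or 3 (adjusted p = 0.0853, 0.064 and 0.0852) and without 24M replicates 2 or 6 (0.0563 and 0.0629). With 24M replicates 1 and 4 both left out, the log2 change was 1.87 ± 0.70 (adjusted p = 0.179).

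At 29M, Cd8a had 6, 5 and 4 reads where the paired-end 3M libraries had 0, 0 and 0. The level was 0.421 ± 0.113 CPM (SD, n = 3), at least 5.25-fold above the 3M group taken at a floor of 3 reads over the group. With counting error on both sides, the exact lower limit of the ratio was 3.77. The edgeR test without a filter gave an adjusted p of 0.00334, and this call remained when any single library was omitted (adjusted p from 0.00855 to 0.0426). With 1 group at 0 the fitted fold change (5.40 ± 1.36) depends on the prior count of the fit and is no bound.

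Cd8b1 (chr6:71322788-71337494, plus strand) encodes the beta chain that pairs with Cd8a on conventional cytotoxic T cells and lies beside it on chromosome 6. No read of it was counted in any of the 5 single-end or 3 paired-end 3M libraries, for which a floor of 3 reads over the group corresponds to 0.0274 and 0.0788 CPM (exact upper limits 0.0337 and 0.0968 CPM). At 24M it had 0, 1.5 and 3 reads as the lowest, median and highest, and 5 of 6 libraries held a read. The summed reads were at least 2.94-fold above the 3M floor (exact lower limit of the ratio 1.73), and the test did not pass (edgeR without a filter, adjusted p = 0.0921); with 24M replicates 1 and 4 kept apart the adjusted p was 0.0413. At 29M it had 4, 3 and 9 reads, so the groups did not overlap, at least 5.60-fold above the 3M floor (exact lower limit 4.05, adjusted p = 0.00215). Without 29M replicate 3, which held the 9 reads, the adjusted p was 0.0918.

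Summed over the 2 CD8 chains, the 3M libraries held 5 reads (single-end) and 0 reads (paired-end) in all, and the aged ones 42 and 31. By reads, with the 24M pair as 1 sample, the sum was 8.23-fold higher at 24M (interval 3.14 to 27.3) and at least 10.9-fold higher at 29M against the floor of 3 reads (exact lower limit 8.32). The size of the 24M value depends on that pair, since replicates 1 and 4 held 14 and 13 of the 42 reads and the other 24M libraries 3 to 5 each. Whether the CD8 and CD3 chains differed in their change was not tested.

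**Figure D2:**
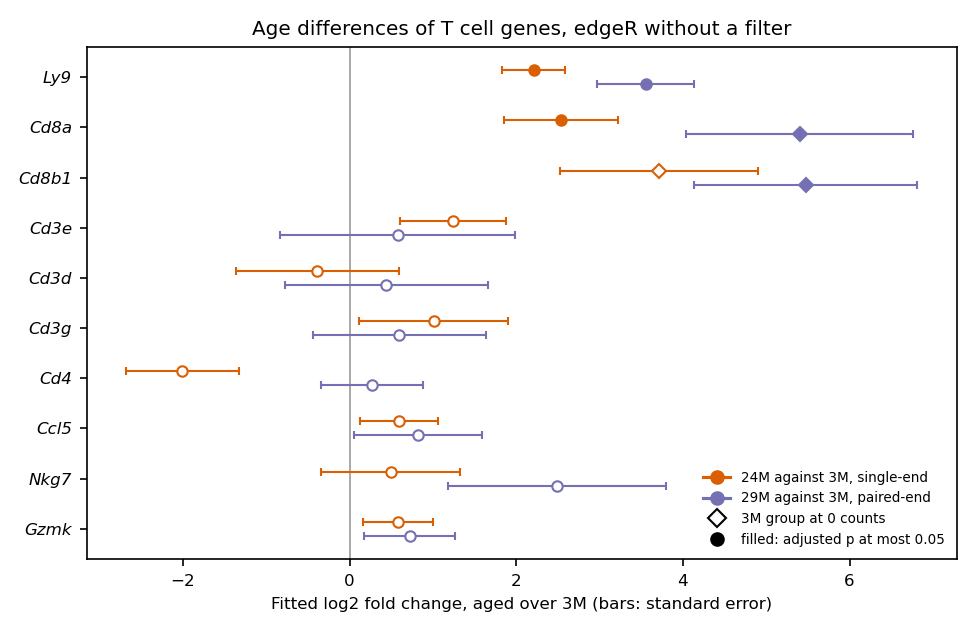
Fitted log2 fold change of each gene, aged over 3M, with its standard error (horizontal axis), from edgeR without a filter, for 24M (orange) and 29M (violet). Filled symbols passed an adjusted p of 0.05, and diamonds mark genes with 0 reads in the 3M group, whose fitted size is no bound: Ly9 and Cd8a are filled at both ages and Cd8b1 at 29M.

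Cd4 (chr6:124864692-124888221, minus strand), the co-receptor of helper T cells that microglia and other myeloid cells can also express, was not called higher at either age. It had 10, 11, 8, 71 and 9 reads in the single-end 3M libraries and 1, 4 and 8 reads as the lowest, median and highest at 24M. The mean level was 1.08 ± 1.43 CPM at 3M and 0.238 ± 0.134 at 24M (SD, n = 5 and 5), and the samples overlapped. By reads it was 0.256-fold at 24M (interval 0.149 to 0.420), and the fit gave -2.01 ± 0.68 (edgeR without a filter, adjusted p = 0.100). Without 3M replicate 4 the 3M mean was 0.439 ± 0.121 CPM (n = 4), the ratio by reads 0.604 (interval 0.329 to 1.07) and the log2 difference -0.74 ± 0.43 (adjusted p = 0.414). Left out singly, 3M replicates 3 and 5 gave adjusted p-values of 0.0447 and 0.0296, with the 71 reads still in. In the paired-end libraries Cd4 had 5, 3 and 5 reads at 3M and 4, 6 and 5 at 29M (log2 difference 0.27 ± 0.62, adjusted p = 0.886), which overlap.

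**Figure D3:**
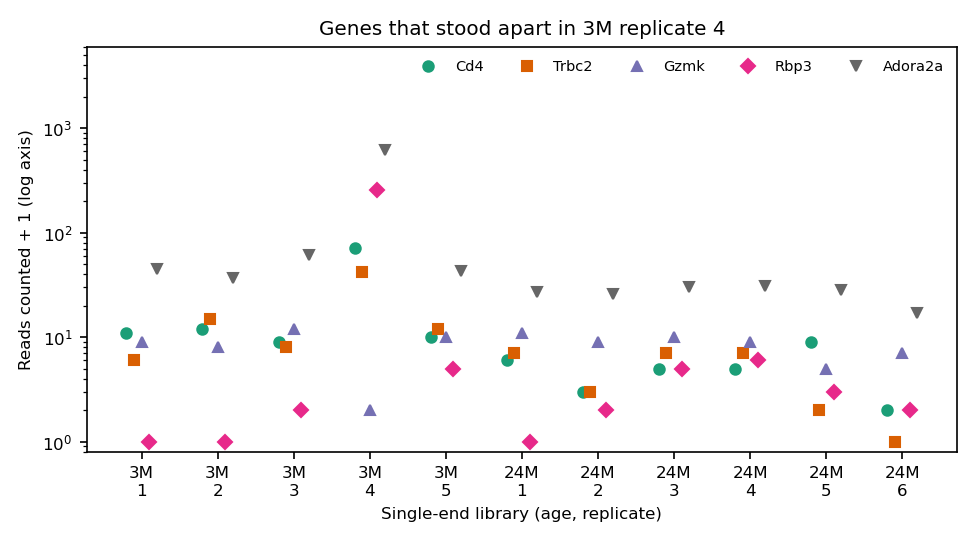
Reads plus 1 (vertical log axis) of Cd4, Trbc2, Gzmk, Rbp3 and Adora2a in each of the 11 single-end libraries (horizontal axis, age and replicate). In 3M replicate 4 Cd4 (71 reads), Trbc2 (41), Rbp3 (253) and Adora2a (615) are at their highest and Gzmk (1 read) is at its lowest.

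The effector genes are carried by memory and cytotoxic T cells and by natural killer cells. Ccl5 (chr11:83525778-83530518, minus strand), a chemokine that attracts T cells, had 4, 5, 8, 5 and 2 reads in the single-end 3M libraries, and 2, 5 and 8 as the lowest, median and highest at 24M. The paired-end counts were 1, 4 and 2 at 3M and 4, 2 and 6 at 29M. The groups overlapped both times, with log2 differences of 0.59 ± 0.47 and 0.82 ± 0.77 (edgeR without a filter, adjusted p = 0.515 and 0.703).

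Nkg7 (chr7:43437073-43438249, plus strand), a membrane protein of cytotoxic granules, had 0 to 2 reads in the single-end 3M libraries and 0 to 4 at 24M (log2 difference 0.49 ± 0.84, adjusted p = 0.785). The paired-end counts were 0, 0 and 1 at 3M and 1, 4 and 2 at 29M. The ratio by reads at 29M was 7.36 with an interval of 0.945 to 331.5, since it rests on 1 read at 3M, and the fit without a filter did not pass (2.49 ± 1.31, adjusted p = 0.379).

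Gzmk (chr13:113171608-113225908, minus strand), the granzyme of memory CD8 T cells, had 8, 7, 11, 1 and 9 reads in the single-end 3M libraries, with the 1 in replicate 4, and 4, 8 and 10 as the lowest, median and highest at 24M. Its log2 difference was 0.58 ± 0.42 (adjusted p = 0.495), and 0.33 ± 0.37 (adjusted p = 0.657) without 3M replicate 4. At 29M it had 8, 6 and 8 reads against 2, 7 and 5 at 3M. All 29M libraries were higher in CPM (0.606 ± 0.0704 against 0.362 ± 0.170, SD, n = 3 and 3), but the difference did not pass the test (0.72 ± 0.55, edgeR without a filter, adjusted p = 0.638). The span of Gzmk overlaps Esm1 on the other strand without a shared exonic base. The sum of the 3 effectors was 1.47-fold at 24M by reads (interval 1.03 to 2.10) and 1.96-fold at 29M (1.14 to 3.45). These intervals leave out the spread between libraries. At 24M the sum overlapped with 3M (0.3375 to 1.41 CPM against 0.3585 to 0.731, the lowest 3M value in replicate 4). The paired-end groups did not overlap (1.09 to 1.18 CPM at 29M against 0.249 to 0.731 at 3M).

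Cytotoxic genes outside the members did not reach the default filter. Of the 14 listed, 14 at 24M and 12 at 29M were tested without a filter, and 0 were called by edgeR or DESeq2 (unadjusted edgeR p under 0.05 for 1 at each age). Their summed level was 1.61 ± 0.435 CPM at 3M and 1.73 ± 0.557 at 24M in single-end libraries, and 1.20 ± 0.189 and 1.57 ± 0.412 in paired-end ones. Gzmb had at most 5 reads and Prf1 at most 5 in any library. Of the 8 natural killer cell genes, 0 passed the default filter, and of the 6 and 5 tested without it 0 were called by edgeR or DESeq2 and 0 had an unadjusted edgeR p under 0.05. In that list 4 genes had no read in each group, and the sum stayed at or under 0.304 CPM in all samples.

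Ly9 (chr1:171588624-171607410, minus strand), a SLAM family receptor found on T cells, B cells and other leukocytes, was called higher at both ages. It had 5, 13, 3, 4 and 6 reads in the single-end 3M libraries and 11, 21 and 29 as the lowest, median and highest at 24M. All 24M samples were above all 3M samples in CPM (0.303 ± 0.221 at 3M, highest 0.679, and 1.38 ± 0.478 at 24M, lowest 0.911, SD, n = 5 and 5). Without a filter its log2 change was 2.21 ± 0.38 (edgeR, adjusted p = 0.00241), under the default filter 2.22 ± 0.40 (adjusted p = 0.0109), and by reads 4.70-fold (interval 3.11 to 7.28).

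In the paired-end libraries Ly9 had 1, 3 and 0 reads at 3M and 19, 14 and 15 at 29M. The lowest 29M level was 1.11 CPM and the highest 3M level 0.199. The mean went from 0.0941 ± 0.100 to 1.33 ± 0.264 CPM (SD, n = 3 and 3), with a log2 change of 3.55 ± 0.58 without a filter (edgeR, adjusted p = 1.77e-07) and 3.55 ± 0.53 under the default filter (adjusted p = 0.00235). In both fits, omitting any single library kept its call at 24M and at 29M (default filter, log2 change 1.95 to 2.71 at 24M and 3.09 to 4.63 at 29M). The change at 29M exceeded that at 24M by 1.37 ± 0.89, which did not pass the test of the difference (adjusted p = 0.60). No member passed that test in the fit of all 4 groups, where 1 was tested under the default filter, and without a filter Cd8a gave a difference of 3.27 ± 1.82 (adjusted p = 0.716). Ly9 overlaps Cd244a on the other strand without a shared exonic base, and Cd244a had at most 6 reads in any library.

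The genes whose levels followed Ly9 most closely across the 16 samples, among 14898 genes that passed the filter in both comparisons, were Clec7a (Pearson r = 0.954 of log2 CPM with 0.5 added), Itgb2 (0.949) and Ctss (0.944). Clec7a is a pattern receptor of myeloid cells and aged microglia, Itgb2 is the beta chain of leukocyte integrins, and Ctss is a protease of antigen-presenting cells. Clec7a went from 0.565 to 3.22 CPM at 24M and from 0.343 to 3.21 at 29M, and Ctss from 58.5 to 109 and from 51.3 to 89.7. These points share age, library type and depth, and r is given as a description.

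Per kilobase of exon, the levels at 29M ran from Gzmk (0.437 ± 0.0507 CPM per kilobase) and Ly9 (0.404 ± 0.0799) over Ccl5 (0.336 ± 0.137), Cd8b1 (0.287 ± 0.141) and Nkg7 (0.218 ± 0.160) to Cd8a (0.116 ± 0.0310) and Cd4 (0.104 ± 0.0275). The CD3 chains came last, with 0.0595 ± 0.0189 for Cd3d, 0.0493 ± 0.0201 for Cd3g and 0.0204 ± 0.0022 for Cd3e. Neighbours in the order from Gzmk to Cd4 lay within their spread (SD, n = 3), as did Cd3d and Cd3g, whereas all 29M libraries of Cd4 lay above those of Cd3d. In the paired-end 3M group Gzmk (0.261 ± 0.122) and Ccl5 (0.184 ± 0.0953) were highest, and Cd8a and Cd8b1 were at 0. In the single-end libraries Ly9 went from 0.0915 ± 0.0669 at 3M, below Gzmk (0.232 ± 0.112) and Ccl5 (0.225 ± 0.0787), to 0.417 ± 0.145 at 24M, the highest level of the 10 there, within the spread of Ccl5 (0.384 ± 0.254) and Gzmk (0.369 ± 0.128).

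Genes of resident and exhausted T cells were partly higher. Of 10 listed, 4 passed the default filter at each age, with 2 called higher at 24M and 1 at 29M. Of the 4 tested, 2 at 24M and 3 at 29M had a log2 change above 0, with medians of 0.25 and 0.34. Tox, the most abundant gene of the list, went from 19.93 to 16.17 CPM at 24M and from 16.06 to 18.05 CPM at 29M. Lag3, an inhibitory receptor that microglia and neurons also express, rose by 0.72 ± 0.11 at 24M (edgeR, adjusted p = 0.00479) and by 1.15 ± 0.15 at 29M (adjusted p = 0.000870), from 5.58 ± 0.179 to 12.3 ± 1.99 CPM at the latter (SD, n = 3 and 3). Havcr2, an inhibitory receptor also found on microglia, rose by 0.58 ± 0.13 at 24M (adjusted p = 0.0245) and had 0.49 ± 0.15 at 29M (adjusted p = 0.115). Its call was lost without 3M replicate 1 or 24M replicates 2 or 3 (adjusted p up to 0.0705), and without the 24M pair (0.0692). A further 2 genes under the filter, chosen after their values were seen, had a called difference without it. Pdcd1, the PD-1 receptor, had 2, 4, 1, 3 and 2 reads in the single-end 3M libraries and 5 to 10 at 24M (log2 change 2.20 ± 0.45, adjusted p = 0.00831), and 0, 0 and 1 against 12, 8 and 9 at 29M (4.48 ± 0.87, adjusted p = 2.07e-05). The 29M value rests on 1 read at 3M. It ran from 3.90 to 6.36 with single libraries left out, and the call remained each time. Cxcr6, a chemokine receptor of resident T cells, had 2 or 3 reads in each single-end 3M library and 4 to 10 at 24M (1.98 ± 0.46, adjusted p = 0.0182), a call lost without 24M replicate 2 (0.0539) or the 24M pair (0.0638). Its paired-end libraries overlapped, with 0, 3 and 0 reads at 3M and 4, 1 and 6 at 29M. Of 11 helper and regulatory T cell genes, 4 and 3 were tested and 0 were called by edgeR or DESeq2 (unadjusted edgeR p under 0.05 for 0 and 1).

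Among 9 other SLAM family genes and adaptors, 3 were tested at each age and 1 was called higher, Cd84, a receptor of leukocytes and microglia. It rose by 0.92 ± 0.13 at 24M (edgeR, adjusted p = 0.00275) and by 0.72 ± 0.18 at 29M (adjusted p = 0.0458). The call at 29M was lost with DESeq2 (adjusted p = 0.192) and without 5 of the 6 libraries taken singly (adjusted p up to 0.201), and in 1 fit of all 4 groups (0.0686). At 24M, 3 genes of the list were called without 3M replicate 2.

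Of the 23 chemokines, adhesion molecules and receptors of T cell traffic, 11 were tested at each age and 2 were called higher at each. Itgb2 rose at both (0.56 ± 0.15 with adjusted p = 0.0443, and 0.999 ± 0.132 with adjusted p = 0.00112), Cxcl16, the ligand of Cxcr6, at 24M (0.80 ± 0.18, adjusted p = 0.0279), and Icam1, a ligand of leukocyte integrins, at 29M (1.02 ± 0.21, adjusted p = 0.0189). The 24M calls of Itgb2 and Cxcl16 were lost without several single libraries (adjusted p up to 0.107) and without the 24M pair (0.102 and 0.0757), and the 29M call of Icam1 likewise (up to 0.123), with DESeq2 (0.0806) and in 1 fit of all 4 groups (0.0747). The count of the list ran from 0 to 5 at 24M and from 1 to 2 at 29M with single libraries left out. Without a filter, 22 were tested and 4 were called at each age. Among these, chosen after their values were seen, Cxcl10, a chemokine for activated T cells, had 5 to 7 reads in the single-end 3M libraries and 9 to 42 at 24M (2.34 ± 0.41, adjusted p = 0.00308), and Ccl8, a monocyte chemokine, had 1 to 3 and 1 to 14 (2.27 ± 0.52, adjusted p = 0.0182), a call lost without 24M replicate 2 (0.0546) or the 24M pair (0.0674).

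Of the 11 MHC class I pathway genes, which serve the presentation of peptide to CD8 T cells, 7 rose at 29M and 1 rose at 24M. The median log2 change of the 11 was 0.65 and 0.37, respectively. These counts depended on single libraries. At 24M 6 were called without 3M replicate 2, the library high in these transcripts (320.0 CPM against 193.5 to 220.0 in the other single-end 3M libraries), and 0 without 3M replicate 1 or 24M replicate 2. At 29M 3 to 6 were called with a library left out, 5 by DESeq2 and 0 in 1 fit of all 4 groups, which share an estimate of the spread. B2m, the light chain, rose by 0.71 ± 0.15 at 24M (edgeR, adjusted p = 0.0220) and 0.65 ± 0.07 at 29M (adjusted p = 0.000120). H2-D1 and H2-K1, the heavy chains, rose by 0.91 ± 0.10 and 0.80 ± 0.09 at 29M (adjusted p = 0.000374 and 0.000447), and Tap2, of the peptide transporter, by 0.59 ± 0.11 (adjusted p = 0.00798). The 24M call of B2m was lost without 3M replicate 1 or 24M replicate 2 (up to 0.0643) or the 24M pair (0.0593), and the 29M call of Tap2 without 29M replicate 3 (0.062). In the fit of all 4 groups the 29M adjusted p was 0.14 for B2m, 0.0732 for H2-D1, 0.213 for H2-K1 and 0.11 for Tap2. Of the MHC class II genes, which present to CD4, 8 of 11 were tested and 2 were called higher at each age. H2-Aa rose at both (1.07 ± 0.25, adjusted p = 0.0287, and 0.88 ± 0.22, adjusted p = 0.0444), H2-DMb1 at 24M (lost without 24M replicate 2, adjusted p = 0.0614) and Cd74 at 29M. The H2-Aa call was lost in turn without 4 single-end and 5 paired-end libraries (adjusted p up to 0.0711 and 0.221), without the 24M pair (0.073) and at 29M with DESeq2 (0.0895), and at 29M the fit of all 4 groups ended the calls of H2-Aa (0.348) and Cd74 (0.456). With single libraries left out, 0 to 5 class II genes were called at 24M and 1 to 5 at 29M, and without a filter 3 and 6 were.

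**Figure D4:**
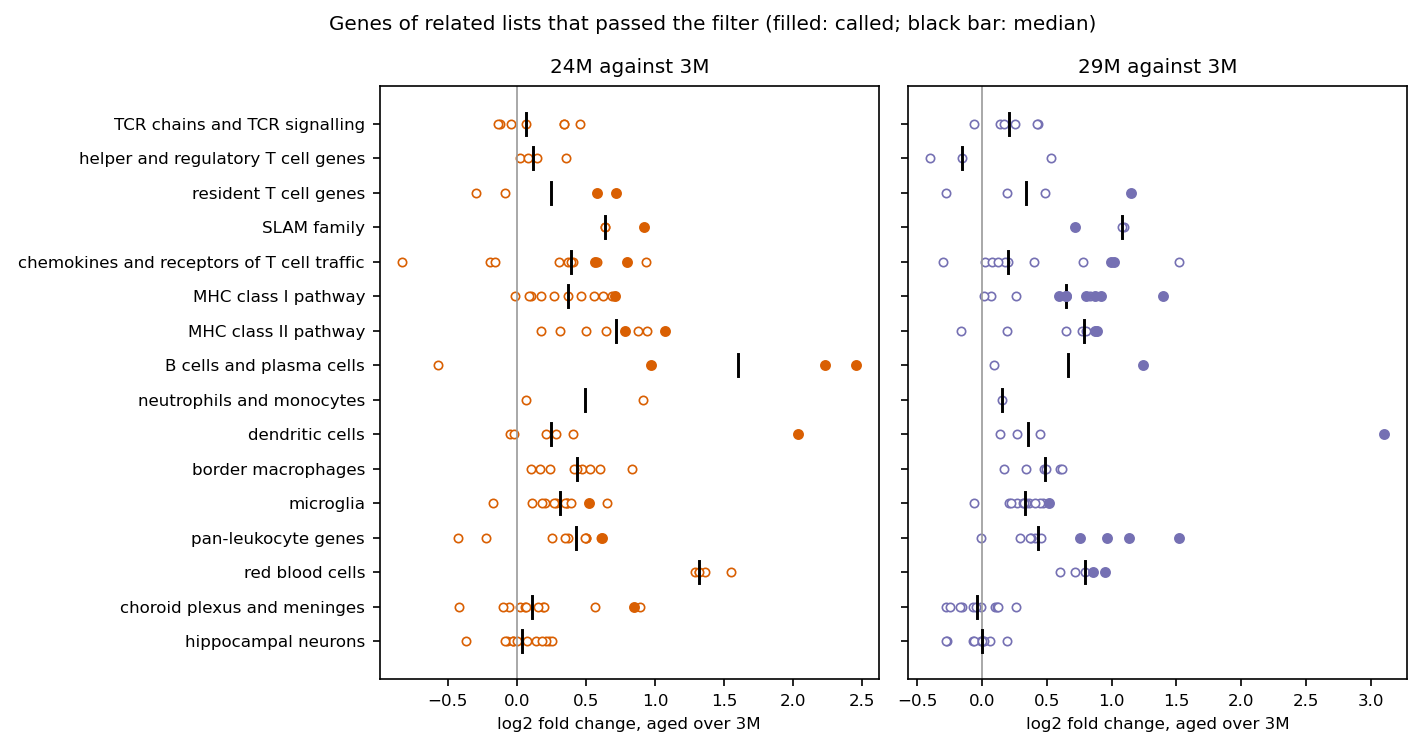
Log2 fold change, aged over 3M (horizontal axes), of each gene that passed the default filter in lists of related genes and other cell types, at 24M (left) and 29M (right). Filled points were called, open points were not, and black bars are list medians: 7 of 11 MHC class I genes are filled at 29M, and none of the T cell receptor list is filled at either age.

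Markers of other cells that can carry these transcripts moved as well, and their part in the results above was not tested. Of the 12 microglia genes, all tested, 1 was called higher at each age (P2ry12 at 24M, 0.52 ± 0.13, and Tmem119 at 29M, 0.51 ± 0.11), and their summed level went from 461 ± 27.6 to 547 ± 11.1 CPM at 24M and from 428 ± 12.3 to 534 ± 21.0 at 29M, with Csf1r the most abundant. Without single libraries these calls were lost too, with adjusted p up to 0.0952 for P2ry12 (6 of 11 libraries in turn, and with the 24M pair left out) and 0.0955 for Tmem119 (3 of 6). At each age 11 of the 12 microglia genes had a log2 change above 0 and 10 an unadjusted edgeR p under 0.05, with medians of 0.32 and 0.33. DESeq2 called 2 of them at 24M and 1 at 29M. Of 9 dendritic cell genes, 6 at 24M and 4 at 29M were tested under the default filter. At each age 4 of those had a log2 change above 0, with medians of 0.25 and 0.36. Only 1 was called, at both ages: Itgax, the CD11c integrin that aged microglia also express, rose by 2.03 ± 0.32 and 3.10 ± 0.39 (edgeR, adjusted p = 0.00520 and 0.000732; without a filter 2.02 ± 0.32 and 3.10 ± 0.39, adjusted p = 0.00129 and 3.76e-13). It passed the default filter through its aged libraries, with at least 10 reads in 6 of 6 at 24M and 3 of 3 at 29M, against 2 of 5 and 0 of 3 at 3M, so its passing is no support. Of 11 B cell and plasma cell genes, 4 and 2 were tested under the default filter, with 3 called at 24M and 1 at 29M. Without a filter the medians of the 11 were 0.47 and 0.09, with 8 and 6 of them above 0. Ighm rose at both ages (0.97 ± 0.16 and 1.24 ± 0.24, adjusted p = 0.00587 and 0.0125), and Igkc and Cd22 at 24M (2.46 ± 0.48 and 2.23 ± 0.31, adjusted p = 0.0166 and 0.00230, and without a filter 2.45 ± 0.42 and 2.22 ± 0.33, adjusted p = 0.00248 and 0.000723). At 24M Igkc and Cd22 also passed the filter through the aged libraries (at least 10 reads in 6 and 5 of 6, against 1 and 0 of 5 at 3M). At 29M these 2 genes were under the default filter and were called without it, Igkc with 11 reads over the 3M libraries and 22, 77 and 9 in the 29M libraries (3.38 ± 0.37, adjusted p = 3.25e-17) and Cd22 with 7 over the 3M and 48 over the 29M libraries (2.76 ± 0.52, adjusted p = 1.19e-05). Without 29M replicate 2, which held the 77 reads, the change of Igkc was 2.04 ± 0.51 (adjusted p = 0.00309). Jchain, of the same list and named after its values were seen, was called without a filter at 24M. It had 2 to 5 reads in the single-end 3M libraries and 3 to 14 at 24M (2.05 ± 0.47, adjusted p = 0.0182), a call lost without 24M replicate 2 (0.0759). The defining B cell gene Ms4a1 had at most 3 reads in any library, and the 29M call of Ighm was lost without 3M replicate 3 (adjusted p = 0.0628). Of 10 pan-leukocyte genes, 1 was called at 24M (Lsp1) and 4 at 29M. Ptprc, the CD45 antigen, rose by 0.96 ± 0.18 at 29M (adjusted p = 0.00883), and its summed list went from 176 ± 21.3 to 185 ± 6.48 CPM at 24M and from 153 ± 4.30 to 180 ± 6.54 at 29M. Left out singly, 29M replicates 1 and 3 ended the call of Ptprc (adjusted p up to 0.0728), and 4 of the 11 single-end libraries, or the 24M pair together, that of Lsp1 (up to 0.0942), and the fit of all 4 groups ended the call of Ptprc (0.17). The count of that list ran from 0 to 5 at 24M and from 1 to 4 at 29M with single libraries left out.

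Transcripts of red blood cells differed between libraries too, and whether blood left in the tissue accounts for this was not tested. The summed level of 6 red blood cell genes was 79.2 ± 20.8 CPM at 3M and 201.6 ± 193 at 24M in single-end libraries, where replicate 2 reached 542, and 75.8 ± 8.22 and 131 ± 47.5 in paired-end libraries, with 0 called at 24M by edgeR (5 at an unadjusted p under 0.05, and 1 called by DESeq2) and 2 at 29M (Hba-a1 and Alas2, lost without several single libraries, adjusted p up to 0.159 and 0.22, in 1 fit of all 4 groups, 0.529 and 0.701, and with DESeq2, 0.23 and 0.0633). With single libraries left out, 0 to 1 of the list were called at 24M and 0 to 5 at 29M. Without a filter 4 and 5 of the 6 were called. In 24M replicate 2 Cd8a had 2 reads and Ly9 26. Of 12 neutrophil and monocyte genes, only 2 at 24M and 1 at 29M passed the default filter, and 0 were called by edgeR or DESeq2 (unadjusted edgeR p under 0.05 for 0). Without a filter, 11 and 12 were tested, with medians of 0.78 and 1.15, and 1 was called, Ngp, a neutrophil granule gene, at 24M (0 to 5 reads at 3M and 4 to 21 at 24M, 2.63 ± 0.56, adjusted p = 0.0115). Of 9 border macrophage genes, 9 and 6 were tested and 0 were called by edgeR, with medians of 0.44 and 0.49. An unadjusted p under 0.05 was reached by 3 of these at 24M, where DESeq2 called 1 and edgeR called 2 without 24M replicate 3, and by 0 at 29M. Of 12 choroid plexus and meningeal genes 1 was called (Lum at 24M, 0.85 ± 0.20, adjusted p = 0.0306, up to 0.0884 without single libraries and 0.0579 without the 24M pair), with list medians of 0.11 and -0.04. Of 12 hippocampal neuron genes, all expressed in every group, 0 were called by edgeR or DESeq2 (unadjusted edgeR p under 0.05 for 4 and 2), and their medians were 0.04 and 0.00.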

How the data were processed

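The authors aligned reads to GRCm38.p2 with STAR 2.3.0, per the labels, counted them with HTSeq (intersection-nonempty mode) and deposited raw counts per gene and library, not normalized. No source used here names the annotation release used for counting. The libraries do not mark strand. Gene names and coordinates were taken from GENCODE M21 (36602 of 38355 identifiers named). Summary lines that name no gene did not enter library sizes; reads not unique were 22.9% to 26.6% in single-end and 10.8% to 12.7% in paired-end libraries.

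The quasi-likelihood test of edgeR 4.0.16 was run in R 4.3.3 after TMM scaling; DESeq2 1.42.0 was an alternative, and its adjusted p was NA for most members. Standard errors are the log2 fold change over the root of F. Alternatives were the filter, normalization, 1 fit of all groups, the replicate number as a block, single libraries left out, and the 24M pair kept apart or left out. Those without a filter that left out or split libraries were added after the data were seen. The edgeR steps were tested on simulated data, with changes placed only in genes of higher expected counts than most members had. That test therefore says nothing about calls at the few reads of Cd8a and Cd8b1. Members and the 20 other lists were chosen with earlier results of these data known. Named were all members, the called genes of each list (at most 4, by smallest p, otherwise the single smallest), Trac, Trbc1, Trbc2 and Cd247, and the 3 genes closest to Ly9. Other genes in the text (Pdcd1, Cxcr6, Cxcl10, Ccl8, Jchain, Ngp, the retinal, pineal and striatal genes, and genes given to describe a list's level or an overlap) fall outside this rule and were named after their values were seen. The list of sex-linked genes served only as a check of the libraries. Under the default filter edgeR called 0 of its genes (unadjusted p under 0.05 for 3 at 24M and 0 at 29M) and DESeq2 called 1, at 24M. With single libraries left out, edgeR called 0 to 2 at 24M, and without a filter it called 1 at 24M and 0 at 29M. A few listed genes are not reported here.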

Additional observations from a re-analysis of the deposited data

Results flagged for a closer look

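In groups of 4 to 10 samples, the gap between the most extreme sample and its neighbour was divided by the range of the group (Dixon's ratio). Over 58 such groups 7 exceeded the 95% limit, where chance flags about 1 in 20, or 2.9.

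Among the members, the Cd4 level of 3M single-end replicate 4 stood far above the others (ratio 0.913, 3.64 CPM against 0.281 to 0.575). The Gzmk level of the same library stood far below them (ratio 0.799, 0.0512 CPM against 0.365 to 0.444). At 24M, Cd8a in replicate 1, which stands for replicates 1 and 4, was above the other samples (ratio 0.716, 0.766 CPM against 0.151 to 0.326).

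Among the lists, 3M single-end replicate 2 held more MHC class I (ratio 0.790, 320.0 CPM against 193.5 to 220.0) and MHC class II transcripts (ratio 0.911, 52.9 CPM against 28.3 to 30.5) than the other 3M libraries. The same library had the highest Ly9 level of its group, 0.679 CPM. Gamma delta chains were counted in 24M replicate 5 (ratio 1.0, 0.113 CPM) and in no other 24M sample. The red blood cell genes were highest in 24M replicate 2 (ratio 0.823, 542 CPM against 77.4 to 160).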

How the results depend on the processing

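At these counts the depth limits most members: a gene with 3 reads or fewer per library can show only large differences. Ly9 kept its direction and its call under all alternatives in which it was tested at 24M (18) and 29M (12); at 24M the filter of at least 1 CPM left no member to test, so 0 were called higher instead of 1. Without a filter, called higher were 2 members (24M) and 3 (29M). In the fits without a filter at 24M, leaving out single libraries gave 1 to 2 members called higher and 0 to 1 called lower (Cd4, without 3M replicate 3 or 5), leaving out 24M replicates 1 and 4 together gave 1, and at 29M single libraries left 2 to 3 called higher. Directions that turned belonged to members that did not pass the test: Cd3d at 24M (0.26 without 3M replicate 4 and 0.11 with the pair kept apart), Nkg7 at 24M (-0.14 with the pair left out), and Cd3g and Cd4 at 29M without 3M replicate 2 (-0.0796 and -0.0722). The causes were not tested. Left out singly, the libraries gave 1 member called higher and 0 lower under the default filter at both ages. That member was Ly9, the only one tested in the full fit, and it passed the filter through its aged libraries. The count is therefore no support for the members as a group. No call of a difference between the ages appeared in 20 alternatives.

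The replicate numbers are shared by the groups, but same-numbered libraries did not deviate together (correlations of -0.160 to 0.047 at 24M and -0.059 to 0.087 at 29M), and none of the aged libraries compared correlated best with its own number. With the replicate number as a block, Ly9 changed by 2.20 at 24M (adjusted p = 0.0371). It was the 1 member called higher at each age, and the only one tested under that filter. The calls over all genes went from 210 higher and 100 lower to 58 and 25 at 24M. Among the called genes named from the lists, the block ended 11 calls at 24M, those of Lag3 and Cd84 with adjusted p = 0.0624 and 0.0665, and 2 at 29M. The fit of all 4 groups ended 13 of those at 29M. For the called genes named from the lists, 55 of 283 alternative values at 24M and 56 of 228 at 29M no longer passed the test, and none reversed.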
